A study of Monodelphis domestica and Mus musculus with 2 samples.

Results

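The 6 genes described here, Grin1, Grin2a, Grin2b, Grin2c, Grin2d and Grin3a, encode subunits of the N-methyl-D-aspartate (NMDA) receptor, and they were taken by symbol, without regard to case, from the 30613 opossum and 61317 mouse features. All 6 symbols were found in the mouse. In the opossum, where 11598 of the features carry a symbol, 4 of the 6 were found (GRIN1, GRIN2A, GRIN2B and GRIN2C). No opossum feature carries the symbol Grin2d or Grin3a, features without a symbol were not searched, and these 2 genes were not analysed there. They were measured in primary visual cortex (V1) by Stereo-seq, which captures polyadenylated RNA of a tissue section on a barcoded chip and counts unique molecular identifiers (UMIs) in segmented cells. The opossum tissue (cut at 10 µm) came from a male gray short-tailed opossum (Monodelphis domestica) of about 6 months from a colony, and the mouse tissue from a male wild-type C57BL/6J mouse of about P40. The labels name no treatment, and the block had an RNA integrity number of 7.1 in the opossum and above 9 in the mouse. Each species is 1 animal and 1 library, cut from a block that held several coronal slices of that animal, so there was no test of any difference. The 3 opossum and 4 mouse V1 regions come from more than 1 coronal slice, span layers 2/3 to 6 without layer 1, and are repeated looks at 1 animal. Values below come from 4806 opossum and 9127 mouse V1 cells that passed the authors' filter, of 80369 and 120239 cells in the libraries.

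The NMDA receptor is a cation channel that opens when glutamate and a co-agonist, glycine or D-serine, are bound and depolarization has removed magnesium from its pore, and its calcium influx drives synaptic plasticity. Every receptor contains the obligatory GluN1 subunit, encoded by Grin1. The GluN2 subunits (Grin2a to Grin2d) bind glutamate and set the kinetics, with slow GluN2B channels prominent in young cortex and faster GluN2A channels added as the visual cortex matures, whereas GluN3A (Grin3a) binds glycine and lowers calcium permeability.

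On mouse GRCm39, all 6 genes lie on the minus strand. Grin1 is at chr2:25181186-25209226 (20 exons), Grin2a at chr16:9385762-9813424 (13 exons), and Grin2b at chr6:135690231-136150548 (14 exons). Grin2c is at chr11:115139992-115158525 (15 exons), Grin2d at chr7:45481304-45527802 (12 exons) and Grin3a at chr4:49661611-49845847 (9 exons). The proteins of the transcripts used run from 921 residues in Grin1 to 1482 in Grin2b. The longest run of residues that is identical in all 6 is 7 residues, and it belongs to the third membrane segment, which lines the gate of the channel. Its 21 coding bases are shown because they set the 6 members side by side at their most conserved point. Capitals mark bases that differ from Grin1, of which there are 2 in Grin2a, 3 in Grin2b, 2 in Grin2c, 4 in Grin2d and 5 in Grin3a.
Grin1 (chr2:25187214-25187234, minus strand, exon 14): tacactgccaacctggcagcc
Grin2a (chr16:9471314-9471334, minus strand, exon 9): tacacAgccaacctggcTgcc
Grin2b (chr6:135749245-135749265, minus strand, exon 10): tacactgccaacTtAgcCgcc
Grin2c (chr11:115144578-115144598, minus strand, exon 11): tacacGgccaaTctggcagcc
Grin2d (chr7:45503706-45503726, minus strand, exon 8): taTacAgccaaTctggcTgcc
Grin3a (chr4:49770473-49770493, minus strand, exon 3): tacacAgcGaacTtggcTgcT

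Across whole transcripts the members share at most 5 stretches of 31 bases (Grin2b and Grin2c), with 2 between Grin2d and each of Grin2b and Grin2c and 0 between every other pair. Genes on the other strand overlap some members, and whether counting used the strand is not given in the sources used here, so reads of such partners cannot be told apart. Grin1os, an antisense noncoding gene inside Grin1, had 160 UMIs in mouse V1 beside 1623 of Grin1. Grin2d, with 97 UMIs, overlaps Kdelr1, a protein-sorting receptor gene with 1466 UMIs, and the noncoding gene Gm45441 with 114. On the same strand, Ppp3r2, a calcineurin subunit gene, and Gm12459 overlap Grin3a, Gm65988 overlaps Grin2b and Gm56237 overlaps Grin2d, so reads in the shared bases could belong to either gene. The UMIs were not divided by transcript length, so levels are compared between cells and not between genes.

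The V1 cells held 6933475 UMIs in the opossum (median 1326 per cell; region medians 1048 to 1503) and 12522687 in the mouse (median 1305; 1259 to 1343), and no cell barcode was shared by the species. Subclass labels had been transferred by the authors from single-nucleus atlases by expression, so the members' own UMIs could enter them, and 30.5% of V1 cells in either species got their label in the first of the 3 rounds. Neuronal genes were also counted in cells labelled non-neuronal. Snap25, a neuronal synaptic gene, stood at 28.6 UMIs per 10000 in opossum non-neuronal subclasses against 29.3 in glutamatergic ones, and at 23.6 against 24.4 in the mouse. Slc17a7, the glutamatergic vesicular transporter, stood at 10.9 in mouse non-neuronal against 10.4 in glutamatergic subclasses and was not found by symbol in the opossum. Gad1 followed the labels. This gene, which encodes a GABA-synthesizing enzyme, was at 9.35 in opossum GABAergic against 1.94 in glutamatergic subclasses, and the mouse values were 4.97 and 1.79. The part of such counts in the differences below was not tested.

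Grin1, Grin2a and Grin2b were measured at more than 1 UMI per 10000 UMIs in V1 of both species, and the other members at a small fraction of 1. All levels have exact 95% Poisson intervals, which cover counting error only. Grin1, the obligatory subunit, was at 3.93 UMIs per 10000 in the opossum (3.79 to 4.09, 2728 UMIs) and at 3.96, 3.90 and 3.95 in its 3 regions. In the mouse it was at 1.30 (1.23 to 1.36, 1623 UMIs), with 1.34, 1.19, 1.28 and 1.31 in the 4 regions. The regions of the species did not overlap, and the opossum level was 3.04 times the mouse level. Of 4329 genes with a symbol in both species, 50.1% were higher in the opossum by the rule used for calls between species (the higher level exceeds the lower by at least 25%, with no overlap of regions), the median gene was 1.32 times as high, and the fold of Grin1 was above that of 91.6% of the genes.

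Grin2a, which encodes the subunit of mature synapses, was at 2.15 in the opossum (2.04 to 2.26, 1492 UMIs), with 2.29, 2.23 and 1.70 in its regions. In the mouse it was at 3.36 (3.26 to 3.47, 4213 UMIs), with 3.76, 3.32, 2.93 and 3.12. Opossum regions were all below the mouse regions, and the opossum level was 0.640 of the mouse level, a direction that 21.1% of the genes took by that rule. Grin2b, which encodes the subunit of slow channels, was at 4.91 (4.74 to 5.08, 3403 UMIs) in the opossum, with 4.97, 5.28 and 4.03 in its regions. In the mouse it was at 5.57 (5.44 to 5.70, 6969 UMIs), with 5.92, 5.71, 5.24 and 5.13, and the regions of the species overlapped. The opossum level of Grin2b was 0.882 of the mouse level, a fold above that of 26.5% of the genes. Species differ here in age, RNA integrity, genome annotation and animal, which cannot be told apart.

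Grin2c, best known from cerebellum, was at 0.104 in the opossum (72 UMIs), with 0.105, 0.128 and 0.0510 in its regions, and at 0.237 in the mouse (297 UMIs), with 0.220, 0.199, 0.259 and 0.276. The opossum count is under the 200 UMIs required for a call. In the mouse, Grin2d, known from interneurons and early development, was at 0.0775 (97 UMIs), with 0.0510, 0.0972, 0.0864 and 0.100 in the regions. Mouse Grin3a, highest in young brain, was at 0.180 (226 UMIs), and its 4 regions lay between 0.179 and 0.182.

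**Figure D1:**
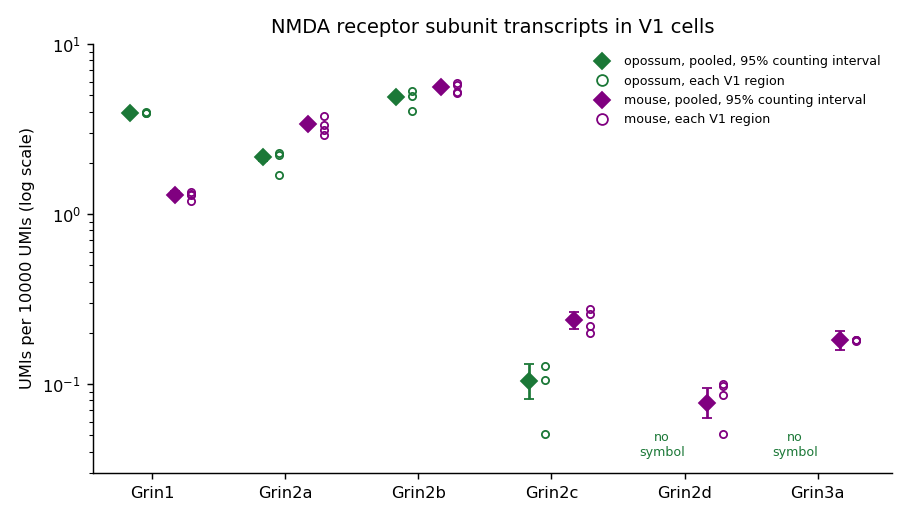
Level of each subunit gene in V1 cells (y axis, UMIs per 10000 UMIs, log scale). Diamonds are the pooled level of a species with its 95% Poisson interval and open circles are its V1 regions. Opossum Grin1 (3.93) lies above mouse Grin1 (1.30), opossum Grin2a (2.15) lies below mouse Grin2a (3.36), and Grin2d and Grin3a were not found by symbol in the opossum.

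UMIs of Grin2a and Grin2b were unevenly spread over cells in both species. In the opossum 1 cell held 31 Grin2b UMIs, and cells with at least 5 held 46.7% of them, against 16.7% in the mouse. Variance was taken around the count expected from each cell's total UMIs. For Grin2b it was 5.09 times the mean in the opossum, higher than for 99.0% of 6554 genes (median gene 1.63). In the mouse it was 2.05 times, higher than for 97.8% of 9092 genes (median gene 1.53). That of Grin2a was higher than for 95.4% of opossum and 98.8% of mouse genes, and Grin1 was near the median gene (1.69 and 1.51). Genes were not matched by level. Grin2a had 25.1% of its opossum and 18.4% of its mouse UMIs in such cells, and Grin1 had 9.53% and 2.46%. A UMI of Grin2b was found in 27.0% of opossum and 40.6% of mouse cells, and a UMI of Grin1 in 32.9% and 13.2%. This variance around the expected counts was above the mean for every member found, so the Poisson intervals are narrower than the spread between cells.

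Glutamatergic subclasses had more Grin2a and Grin2b than non-neuronal subclasses in both species. A difference was called when the higher pooled level exceeded the lower by at least 25% and the direction was the same in every V1 region, over genes with at least 200 V1 UMIs. Opossum Grin2b was at 5.93, 6.53 and 4.66 UMIs per 10000 in glutamatergic subclasses of the 3 regions and at 2.33, 2.63 and 1.85 in non-neuronal ones, which do not overlap, a pooled fold of 2.50 (2.24 to 2.80). Opossum Grin2a was at 2.57, 2.75 and 2.08 against 1.78, 1.18 and 0.892, a fold of 1.89 (1.63 to 2.21). Opossum Grin1 was closer, at 4.30, 4.20 and 4.03 against 3.27, 2.85 and 3.73, a fold of 1.32 (1.20 to 1.46). All 3 tested members were thus called higher, as were 18.7% of 6554 genes, while 13.8% were called lower. With each cell thinned to 300 UMIs, the folds of Grin1 (1.09) and Grin2a (1.33) no longer passed the rule, and without region 2 Grin1 (1.23) did not.

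In the mouse, 2 of 5 tested members were called higher in glutamatergic than in non-neuronal subclasses, and none lower, as were 7.08% and 5.49% of 9092 genes. Grin2a was at 4.44, 3.92, 3.32 and 3.31 against 2.53, 2.11, 2.26 and 2.29 in the 4 regions, a fold of 1.64 (1.49 to 1.80). Grin2b was at 6.70, 6.12, 5.68 and 5.30 against 4.18, 4.89, 4.41 and 4.60, a fold of 1.37 (1.28 to 1.46) that was 1.23 without region 1 and then not called. Neither set of regions overlapped. Grin1 had a fold of 1.17 (1.02 to 1.34) and was higher in 3 of 4 regions. Grin2c (0.608) and Grin3a (0.634) had folds below 1 but in 3 of 4 regions, so they were not called. Once a region was left out both met the size and direction of the rule, Grin2c at 0.523 without region 3 and Grin3a at 0.532 without region 4. Of all genes, 8.21% and 8.34% were then called lower, and the minimum of 200 UMIs was still taken over all regions. Grin3a had 226 UMIs in V1, and without those of the non-neuronal subclasses it would be under the 200 needed for a call. It thus reached that minimum only through the class in which it was higher, and its fold is a description.

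Partners of the receptor were counted by the same rule, from lists of scaffolds, of signalling proteins and of enzymes and transporters that supply or remove the co-agonists. In the opossum comparison 5 of 8 tested scaffold genes were higher and 1 lower in glutamatergic subclasses (median fold 1.59, against 0.994 over all genes). The 5 were Homer1 (1.91), which links postsynaptic receptors, and Dlgap1 (1.70), Dlgap2 (1.87), Dlgap3 (1.48) and Dlgap4 (2.11), which bind PSD-95 proteins, and the 1 was Shank3 (0.750). Signalling genes were higher in 3 of 7, namely Camk2b (1.59), a subunit of the calcium-dependent kinase, Rasgrf2 (1.30), a Ras activator, and Ptpn5 (1.48), a phosphatase of NMDA receptors. Phgdh (0.405), the first enzyme of serine synthesis, was lower, the only call among 2 co-agonist genes tested.
In the mouse 5 of 12 scaffold genes were higher (median 1.19, against 0.989), namely Dlg1 (1.36), Dlg2 (1.77), Dlgap2 (2.61), Shank2 (1.26) and Homer1 (1.79). None of 9 signalling genes was called, and 2 of 6 co-agonist genes were lower, Slc7a10 (0.511), a transporter of D-serine and glycine, and Psat1 (0.553), an enzyme of serine synthesis.

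Between GABAergic and glutamatergic subclasses the members split. Mouse Grin3a was at 0.728, 1.34, 1.04 and 0.664 in GABAergic subclasses of the 4 regions and at 0.127, 0.112, 0.0994 and 0.161 in glutamatergic ones. The lowest GABAergic region was above the highest glutamatergic region, and the pooled fold was 6.85 (4.79 to 9.69; 51 against 99 UMIs). Of the 51 UMIs, 41 were in the Sst subclass. Grin3a was the 1 member of 5 called, and 4.47% of mouse genes were called higher and 9.05% lower. Outside the GABAergic subclasses Grin3a had 175 UMIs in V1, so it reached the 200 UMIs that a call needs only through the class in which it was high, and its call is a description. Mouse Grin2a (fold 0.969) and Grin2b (1.01) were each higher in 2 of 4 regions. Without region 3 mouse Grin1 was at 0.747 and passed the rule, beside 14.2% of genes then called lower.
In the opossum Grin2a was the 1 of 3 members called, at 2.11, 1.89 and 1.65 in GABAergic against 2.57, 2.75 and 2.08 in glutamatergic subclasses. The pooled fold was 0.759 (0.639 to 0.896), and 15.7% of opossum genes were called lower and 10.6% higher. It was 0.924 after thinning and 0.815 without region 2, and then not called. Grin2b passed without region 3 (0.784), beside 20.4% of genes then called lower. Grin2c, below the required count, had 22 UMIs in GABAergic and 30 in glutamatergic subclasses, a fold of 3.72 (2.04 to 6.66) with the same direction in all 3 regions.
Among partners, 3 of 8 opossum scaffolds were lower in GABAergic subclasses, Dlgap1 (0.621), Dlgap3 (0.763) and Homer1 (0.493), as were Camk2b (0.723) and Gcsh (0.739), while Rasgrf2 (1.47) and Phgdh (1.37) were higher. In the mouse 4 of 12 scaffolds were lower, Dlg1 (0.628), Shank2 (0.625), Shank3 (0.617) and Homer1 (0.565), as was the signalling gene Camk2b (0.758).

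Across opossum subclasses Grin1 ran from 4.96 in OPC (oligodendrocyte precursor cells; 68 UMIs, 3.85 to 6.29) and 4.48 in IT_A through 4.39 in IT_B, 4.17 in Sst, 4.07 in Pvalb and 4.06 in IT_C. The lowest were 2.80 in OD (oligodendrocytes; 2.42 to 3.23) and 2.79 in Micro (microglia; 10 UMIs). IT_A, IT_B and IT_C are glutamatergic neurons that project within the telencephalon. The intervals of neighbors in this order overlap throughout. In the mouse Grin1 ran from 1.68 in L5PT (1.34 to 2.08), 1.65 in Sst and 1.52 in L4 to 0.883 in Pvalb and 0.873 in L5NP, and to 0.545 in L6b, which had 2 UMIs.

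**Figure D2:**
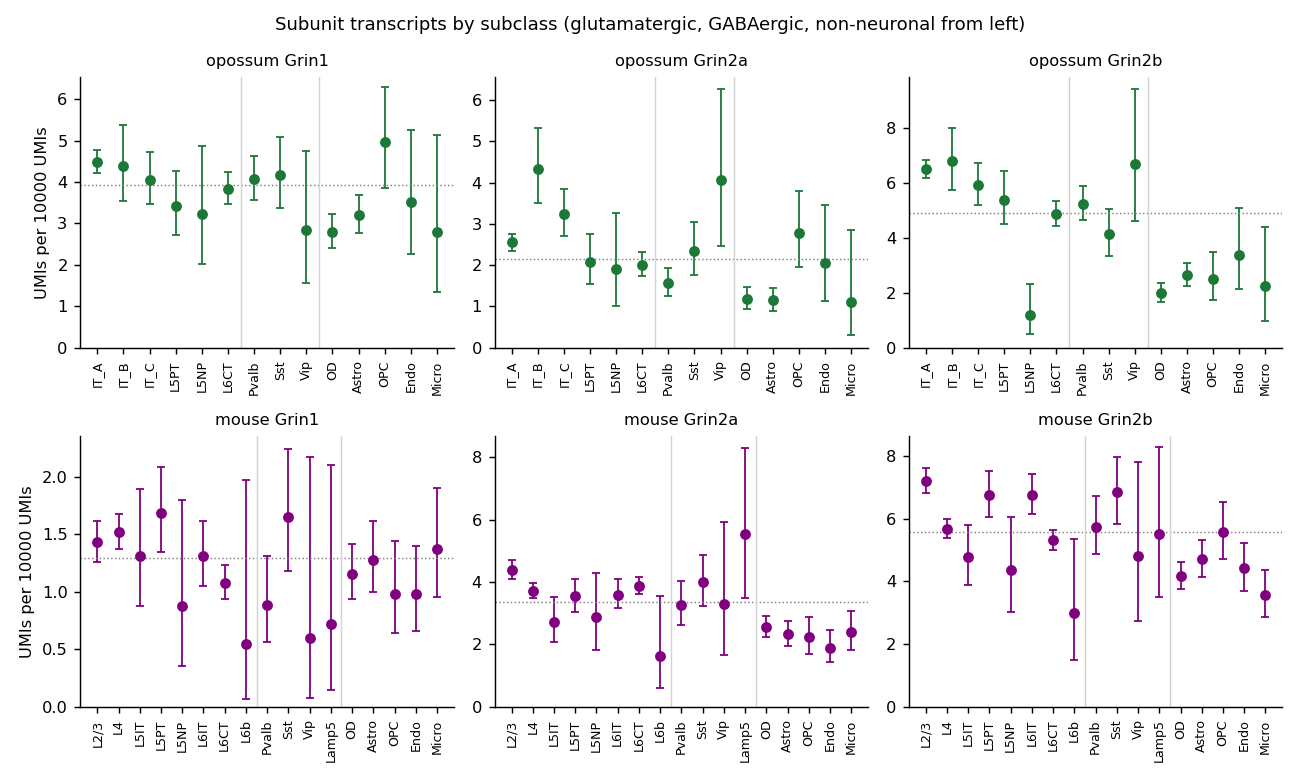
Level of Grin1, Grin2a and Grin2b in each subclass of at least 25 V1 cells (y axis, UMIs per 10000 UMIs). Points are pooled levels with 95% Poisson intervals, and the dotted line is the level over all V1 cells. The highest opossum Grin2a level is that of IT_B (4.34), and opossum Grin2b is lowest in L5NP (1.17) and OD (1.99).

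Grin2a stood highest in IT_B in the opossum, the subclass that carried the layer 4 marker Rorb at 7.50 UMIs per 10000 against 0.481 in IT_A. Its level in IT_B was 4.34 (3.50 to 5.32, 92 UMIs in 126 cells), with 4.64, 2.91 and 7.11 in the 3 regions. IT_A was at 2.60, 2.87 and 1.72 in the same regions, so IT_B was above IT_A within each, barely so in region 2, and by 1.70 over all (1.35 to 2.12). Of the 3 tested members Grin2a alone was called here, beside 10.5% of genes called higher and 19.8% lower, and Grin2b (1.05) and Grin1 (0.978) had folds near 1. Restricted to labels of the first round, the fold of Grin2a was 1.69 and missed the rule, because the direction did not hold in every region. Next to IT_B came Vip (4.05, 20 UMIs), IT_C (3.24), OPC (2.77) and IT_A (2.55), and the lowest were OD (1.17), Astro (astrocytes, 1.15) and Micro (1.12, 4 UMIs).
Rasgrf2 (2.56) and Rasgrf1 (1.47) were also higher in IT_B than in IT_A, and Dlg4 (0.635), the gene of PSD-95, and Src (0.570), a tyrosine kinase, were lower.

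In the mouse, L4 was compared with L2/3. L4, with Rorb at 2.73 against 0.629 in L2/3, had Grin2a at 4.47, 3.16, 3.47 and 3.23 in the 4 regions against 4.86, 4.07, 3.34 and 4.61 in L2/3, a fold of 0.842 (0.766 to 0.927) that was not called. Grin2b was lower in L4, at 5.87, 5.70, 5.57 and 5.52 against 7.92, 7.75, 6.75 and 5.88, a fold of 0.788 (0.730 to 0.849). Grin3a was higher in L4, at 0.185, 0.163, 0.143 and 0.224 against 0.0400, 0.0549, 0.0675 and 0.0922, a fold of 3.01 (1.53 to 6.46; 45 against 11 UMIs). Outside L4 it had 181 UMIs in V1, so it passed the minimum of 200 only with the subclass in which it was high. Of 5 tested members 1 was called higher and 1 lower, beside 5.83% and 4.93% of genes. Both calls were lost after thinning to 300 UMIs (Grin2b 0.745, Grin3a 2.38), that of Grin2b also without region 1 (0.829) or region 2 (0.802), and that of Grin3a with first-round labels alone (7.31). Dlg2 (0.797), Rasgrf2 (0.513) and Srr (0.715), the enzyme that makes D-serine, were lower in L4. The opossum and mouse comparisons were not tested against each other, and over the 15 pairs of member comparisons set side by side, 0 had opposite directions in every region.

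Corticothalamic neurons of layer 6 (L6CT) were compared with upper-layer neurons, IT_A in the opossum and L2/3 in the mouse. Opossum Grin2a was lower in L6CT, at 2.44, 1.87 and 1.54 against 2.60, 2.87 and 1.72 in the 3 regions, a fold of 0.790 (0.670 to 0.928), the 1 call among 3 members (15.4% of genes lower, 14.0% higher). It was lost after thinning (0.917), with first-round labels (0.915) and without region 2 (0.892). Without region 3, Grin1 (0.786) and Grin2b (0.683) passed the rule, from 0.856 and 0.751 over all regions. Of all genes, 20.4% were then called lower. Mouse Grin2b was at 5.87, 4.98, 5.35 and 4.54 in L6CT against 7.92, 7.75, 6.75 and 5.88 in L2/3, a fold of 0.737 (0.679 to 0.800), and L6CT was below L2/3 in each region. Mouse Grin1 was at 1.09, 0.996, 1.10 and 1.10 in L6CT, against 1.46, 1.55 and 1.64 in L2/3 of regions 2 to 4 and 1.3 in region 1 (94 UMIs), without overlap and with a fold of 0.752 (0.625 to 0.903) that was lost after thinning (0.802) and with first-round labels (0.855). These were 2 of 5 members, beside 8.77% of genes lower and 8.47% higher. Grin2c without region 1 (0.334, lower) and Grin3a without region 3 (1.92, higher) passed the rule as well.
Of 8 opossum scaffolds 3 were lower in L6CT, Dlgap2 (0.477), Dlgap3 (0.564) and Shank3 (0.756), and Dlgap4 (1.27) was higher. In the mouse, 2 of 12 were lower, Dlg1 (0.678) and Dlgap3 (0.573), Homer1 (1.31) was higher, and the D-serine enzyme gene Srr (0.735) was lower. Among opossum signalling partners, 6 of 7 were lower in L6CT and 1 higher (median fold 0.678, against 1.02 over all genes), from Rasgrf2 (0.220) to Src (0.737), with Fyn (1.27), a kinase of the GluN2 subunits, higher. In the mouse 3 of 9 signalling genes were lower, Rasgrf2 (0.177), Rasgrf1 (0.664) and Camk2a (0.793).

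Grin2b was lower in most glial than in most neuronal subclasses of the opossum. Opossum levels ran from 6.79 in IT_B, 6.69 in Vip and 6.48 in IT_A to 2.65 in Astro, 2.48 in OPC and 1.99 in OD, and the lowest was a neuronal subclass, L5NP (near-projecting neurons), at 1.17 (0.505 to 2.31; 8 UMIs in 39 cells). L5PT, at 5.39, was at 4.07 without the cell that held 31 UMIs. Mouse levels ran from 7.22 in L2/3 (6.83 to 7.61), 6.84 in Sst, 6.77 in L5PT and 6.76 in L6IT to 4.17 in OD, 3.56 in Micro and 3.00 in L6b (11 UMIs). Mouse OPC stood at 5.57, within the neuronal range. Mouse Grin2a ran from 5.53 in Lamp5 (23 UMIs), 4.40 in L2/3 and 4.00 in Sst to 1.90 in Endo (endothelial cells) and 1.64 in L6b, and L6CT (3.89), L4 (3.71), L6IT (3.60) and L5PT (3.55) could not be ordered within their intervals.

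Each subclass was also set against all others together, at 2-fold or more and in every region, a rule chosen after the data had been seen. Over 14 opossum subclasses and 3 members, 1 of 42 pairs was called higher and 3 lower. Grin2a was higher in IT_B (2.05, 1.64 to 2.53; 3.86% of genes), but the call was lost without region 3 (1.58), in cells whose class label fits (1.94) and with first-round labels (2.07). Grin2b was lower in OD (0.374, 0.313 to 0.445; 5.45% of genes), in OPC (0.493; 9.22%) and in L5NP (0.233; 15.9%). Thinned to 300 UMIs, OD still passed the rule at 0.492, and OPC (0.830) and L5NP (0.578) did not, and OPC also missed it without region 1 (0.552) or 3 (0.557), and L5NP with first-round labels (0.198).

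In the mouse 3 of 85 pairs were called higher and 6 lower. The highest was Grin3a in Sst, the somatostatin interneurons, where it was 11.5 times the level of all other subclasses (7.92 to 16.3). Without its Sst UMIs the gene had 185 in V1, under the 200 needed for a call, so it passed that minimum only through Sst, and the fold is a description. Its level there was 1.69 (1.21 to 2.29, 41 UMIs in 169 cells), with 1.57, 2.46, 2.09 and 0.905 in the 4 regions, and 1.12% of genes were called higher in Sst. The fold lay between 10.0 and 13.5 with each region left out. After thinning it was 6.27 with the same direction in every region, but the minimum of 200 UMIs was not applied to thinned counts. A Grin3a UMI was found in 16.0% of Sst cells (median 1391 UMIs), against 0.765% of L2/3 cells (median 1246.5) and 1.02% of microglia, which are not known for the gene. After thinning, the shares in Sst and L2/3 were 2.98% and 0.281%. The somatostatin gene itself stood at 12.3 UMIs per 10000 in these cells and 3.44 in glutamatergic subclasses. Among the other GABAergic subclasses Pvalb had 0.294 (8 UMIs), and Vip and Lamp5 had 1 UMI each.

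Grin3a was also high in mouse OPC, at 0.833 (0.522 to 1.26, 22 UMIs in 187 cells), with 1.18, 0.246, 0.197 and 1.08 in the 4 regions, 5.02 times the other subclasses (3.07 to 7.85; 0.737% of genes called higher). Region 1 held 15 of the 22 UMIs, and without it the fold was 2.97. It was 1.02 after thinning, 17.7 with first-round labels and 7.29 in cells whose class label fits, none of which passed the rule in every region. Pdgfra, which marks these precursors, was at 1.29 in OPC and 0.140 in glutamatergic subclasses. Grin3a was lower than in the other subclasses in L2/3 (0.286, 11 UMIs; 0.891% of genes lower) and L6CT (0.497, 20 UMIs; 1.36%). These calls, too, passed the minimum only through the higher group, here the other subclasses together. In L5PT it was at 0.427 on 4 UMIs (3.26% of genes), and thinning turned that fold to 1.46. L6CT missed the rule after thinning (0.268) and without region 1 (0.520) or 3 (0.557), and L5PT without region 2 (0.562) or 4 (0.558).

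Mouse Grin2c was highest in astrocytes. Astro cells had it at 0.722 (0.516 to 0.983, 40 UMIs in 447 cells), with 0.646, 0.964, 0.513 and 0.886 in the 4 regions, all above the V1 level of 0.237. The fold over the other subclasses was 3.40 (2.36 to 4.78; 1.18% of genes), and 3.39 after thinning. Without any 1 region it lay between 2.89 and 3.78, and only with first-round labels (4.28) did a region fail the rule. A Grin2c UMI was found in 6.94% of Astro cells and 1.95% of L2/3 cells. The astrocyte marker Slc1a3 was at 6.22 in Astro and 1.90 in glutamatergic subclasses. OPC came next at 0.417 (11 UMIs), and Endo was low at 0.0981 (3 UMIs).
The remaining mouse calls rest on at most 2 UMIs, Grin1 and Grin2c in L6b (29.0% of genes lower) and Grin1 in Vip (31.6%), and counts of that size reach the rule for many genes. Grin1 missed it without region 4 in L6b (0.653) and without region 3 (0.545) or 4 (0.648) in Vip. Grin2c had 0 UMIs in L6b. The limit used for a count of 0 was 3 UMIs, in place of the exact interval, and gives a level of up to 0.818.

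Opossum Grin2c had its highest level in Pvalb interneurons, at 0.342 (0.206 to 0.534, 19 UMIs in 354 cells) with 0.193, 0.478 and 0.262 in the 3 regions, and Astro had 0.0667 (4 UMIs). In IT_B there were 0 UMIs, which allows up to 0.141 with the limit of 3 UMIs used for a count of 0. Without region 2 the Pvalb level was 0.212, and the opossum total of 72 is too small for a call. Mouse Grin2d had its largest counts in L2/3 (22 UMIs, 0.119), L4 (13 UMIs, 0.0519) and L6CT (12 UMIs, 0.0600), and its highest level among subclasses with at least 3 UMIs in OPC (0.227, 6 UMIs, 0 of them in region 1). The fold of L4 over L2/3 was 0.435 (0.201 to 0.903), lower in 4 of 4 regions, but the 97 UMIs of Grin2d are under the minimum for a call. It had 0 UMIs in L5IT, Vip and Lamp5.

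**Figure D3:**
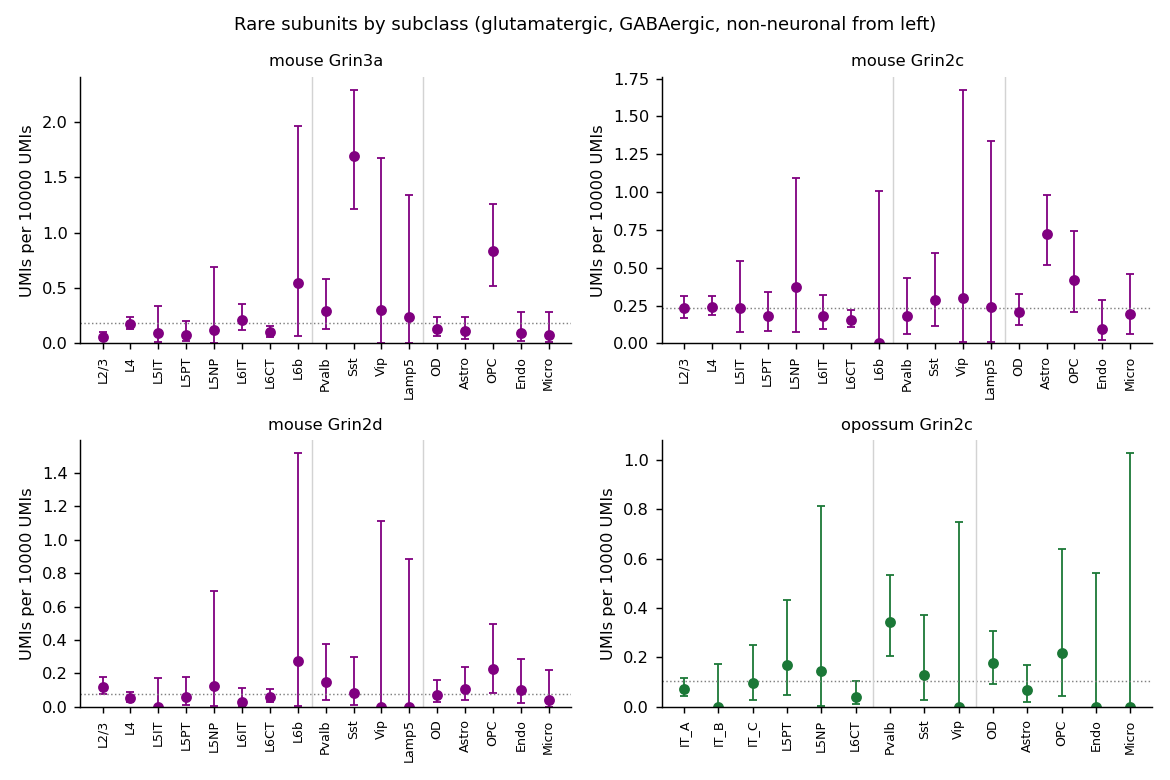
Level of the rarer subunit genes in each subclass (y axis, UMIs per 10000 UMIs, a scale for each gene), with 95% Poisson intervals and the level over all V1 cells as a dotted line. Mouse Grin3a stands out in Sst (1.69) and OPC (0.833), mouse Grin2c in Astro (0.722), and opossum Grin2c in Pvalb (0.342).

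The ratio of Grin2a to Grin2b UMIs sets UMIs of the same cells against each other. It is no ratio of molecules and is read only between groups of cells. It was 0.438 in opossum V1 (0.412 to 0.466, with 0.462, 0.423 and 0.422 in the regions). In the mouse it was 0.605 (0.582 to 0.628), with 0.635, 0.582, 0.559 and 0.607. All mouse regions were above all opossum regions. Intervals are exact (Clopper-Pearson) ones of the Grin2a share. Thinned to 300 UMIs the mouse ratio was 0.640.

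Among opossum subclasses the ratio was lowest in Pvalb, at 0.300 (0.233 to 0.382, 87 against 290 UMIs), with 0.372, 0.266 and 0.262 in the 3 regions, all below the V1 ratio. IT_A was at 0.394 (0.358 to 0.433; regions 0.368 to 0.415) and L6CT at 0.414. Above V1 lay IT_B (0.639, 0.486 to 0.836; regions 0.547, 0.441 and 1.43), IT_C (0.547, 0.440 to 0.679) and OD (0.588, 0.441 to 0.781). OPC stood at 1.12 (0.685 to 1.83, 38 against 34 UMIs), with 1.42, 0.842 and 1.67 in the regions, each above V1. L5NP had 13 against 8 UMIs, and its ratio of 1.62 (0.624 to 4.52) has an interval that includes the V1 value. Over classes the ratio was 0.430 in glutamatergic, 0.386 in GABAergic and 0.569 in non-neuronal subclasses (0.477 to 0.678), and the last was 0.456 to 0.679 with a region left out.

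In the mouse the ratio in L6CT was 0.731 (0.666 to 0.803), though its regions ran from 0.530 to 1.01. L4 was at 0.652 (0.600 to 0.709), L2/3 at 0.610, L5PT at 0.524 and L6IT at 0.532 (regions 0.510 to 0.543). Pvalb was at 0.571 (0.435 to 0.745), an interval that holds the V1 value, unlike opossum Pvalb. Mouse OPC had the lowest ratio, 0.401 (0.292 to 0.546, 59 against 147 UMIs), with all 4 regions (0.179 to 0.588) below the V1 ratio. OPC thus lay at the low end in the mouse and at the high end in the opossum, each read against its own V1, and this difference was not tested. The pooled Endo ratio was 0.430 (0.310 to 0.589), with 0.404, 0.368, 0.952 and 0.211 in the regions, of which region 3 was above the V1 ratio. The classes were at 0.636 (glutamatergic), 0.609 (GABAergic) and 0.530 (non-neuronal).

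**Figure D4:**
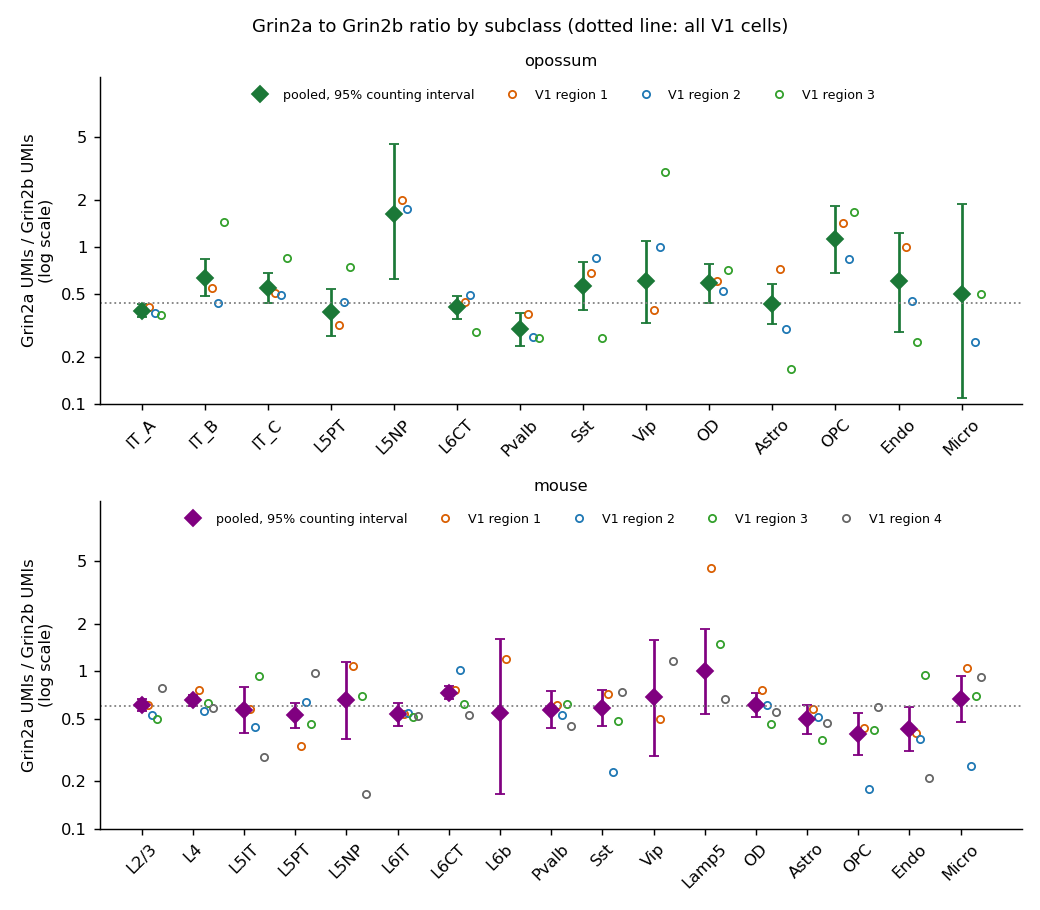
Ratio of Grin2a to Grin2b UMIs by subclass (y axis, log scale). Diamonds are pooled ratios with exact 95% intervals, circles are V1 regions (those with 0 UMIs of either gene are not drawn), and the dotted line is the ratio over all V1 cells. Opossum Pvalb (0.300) lies below and opossum OPC (1.12) above its line, and mouse OPC (0.401) lies below its line.

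Across the depth of the V1 regions, from the upper edge of layer 2/3 (bin 1) to the lower edge of layer 6 (bin 5), pooled Grin2b levels were highest in bin 1 in both species. Opossum Grin2b was at 6.28, 5.12, 4.59, 4.24 and 4.49 in the 5 bins, and mouse Grin2b at 6.73, 5.76, 5.38, 5.13 and 5.05. In both, the Poisson interval of bin 1 did not meet that of bin 2, though these intervals are narrower than the spread between cells. Bin 1 was the highest in 4 of 4 mouse regions and in 2 of 3 opossum regions, and in opossum region 3 bin 5 was higher. Pooled Grin2a levels were highest in bin 2 in either species, but in only 2 of 3 opossum and 2 of 4 mouse regions. Opossum Grin2a was at 2.32, 2.86, 2.17, 1.84 and 1.82, and mouse Grin2a at 3.72, 3.79, 2.96, 3.00 and 3.37, where bins 1 and 2 were within their intervals. Grin1 went from 4.43 in bin 1 to 3.68 in bin 5 in the opossum, and from 1.32 through 1.60 in bin 2 to 1.13 in bin 5 in the mouse. Mouse Grin3a had its highest level in bin 3 (0.266, 0.206 to 0.339), the highest bin in 3 of 4 regions, against 0.147, 0.138, 0.217 and 0.139 in bins 1, 2, 4 and 5. Mouse Grin2d was between 0.0533 and 0.0995 in every bin.

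Deep V1 (relative depth of 0.5 or more) was set against superficial V1. Mouse Grin1 was at 1.15 against 1.45 (fold 0.794, 0.719 to 0.876), and Grin2c at 0.204 against 0.273 (fold 0.748, 0.590 to 0.946), both lower in 4 of 4 regions. Grin2c had 133 UMIs in deep V1 and passed the minimum of 200 only with those of superficial V1, where it was higher. These 2 of 5 members were called lower, beside 8.48% of genes lower and 6.51% higher. Grin2a (0.857) and Grin2b (0.859) were lower in 4 of 4 regions but short of the required size, and Grin3a was at 1.12. Both calls were lost after thinning (Grin1 0.778, Grin2c 0.783) and in non-neuronal subclasses alone (0.864 and 0.816), that of Grin2c also in glutamatergic subclasses alone (0.780), and that of Grin1 without region 2 (0.815).
In the opossum none of 3 members was called, beside 10.1% of genes lower and 10.6% higher, with folds of 0.866 for Grin1 (lower in 3 of 3 regions), 0.796 for Grin2a and 0.853 for Grin2b (each lower in 2 of 3). Without region 3 the fold of Grin2a was 0.748 and passed the rule, beside 12.1% of genes then called lower.
Opossum partners were lower in deep V1 in 4 of 8 scaffolds (Dlgap3 0.566, Dlgap2 0.646, Dlg4 0.749 and Dlg3 0.785; median 0.767, against 1.02 over all genes) and 4 of 7 signalling genes (Rasgrf2 0.528, Ptpn5 0.676, Camk2b 0.735 and Rasgrf1 0.778). In the mouse, 2 of 12 scaffolds (Dlgap3 0.709, Shank2 0.747) and 2 of 9 signalling genes (Rasgrf2 0.331, Src 0.749) were lower, and Psat1 (1.39) was higher.

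By depth bin, the opossum ratio of Grin2a to Grin2b was 0.369 (0.323 to 0.420) in bin 1, 0.558 (0.484 to 0.642) in bin 2, and 0.472, 0.434 and 0.405 below. The intervals of bins 1 and 2, which cover counting error only, do not meet, and bin 1 was below bin 2 in each of the 3 regions. Glutamatergic subclasses alone gave 0.369, 0.540, 0.408, 0.456 and 0.420. In the mouse the ratio was 0.553, 0.659 (0.608 to 0.713), 0.549, 0.584 and 0.667 (regions 0.497 to 0.886), and bin 2 was above bin 1 in 3 of 4 regions. In mouse glutamatergic subclasses alone it was 0.573, 0.679, 0.546, 0.615 and 0.754. Opossum V1 stood at 0.454 superficially and 0.424 at depth, and mouse V1 at 0.605 and 0.604. Thinning turned the opossum order, to 0.391 superficially and 0.485 at depth. Within IT_A, superficial cells were at 0.414 (0.372 to 0.459) and deep cells at 0.307 (0.239 to 0.392), whose regions ran from 0.233 to 0.447. Deep cells were lower in regions 2 and 3, but region 1 went the other way, at 0.410 superficially and 0.447 at depth. In mouse non-neuronal subclasses the ratio was 0.419 superficially (0.345 to 0.506) and 0.598 at depth (0.524 to 0.683), and in the opossum 0.654 and 0.524, with overlapping intervals.

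**Figure D5:**
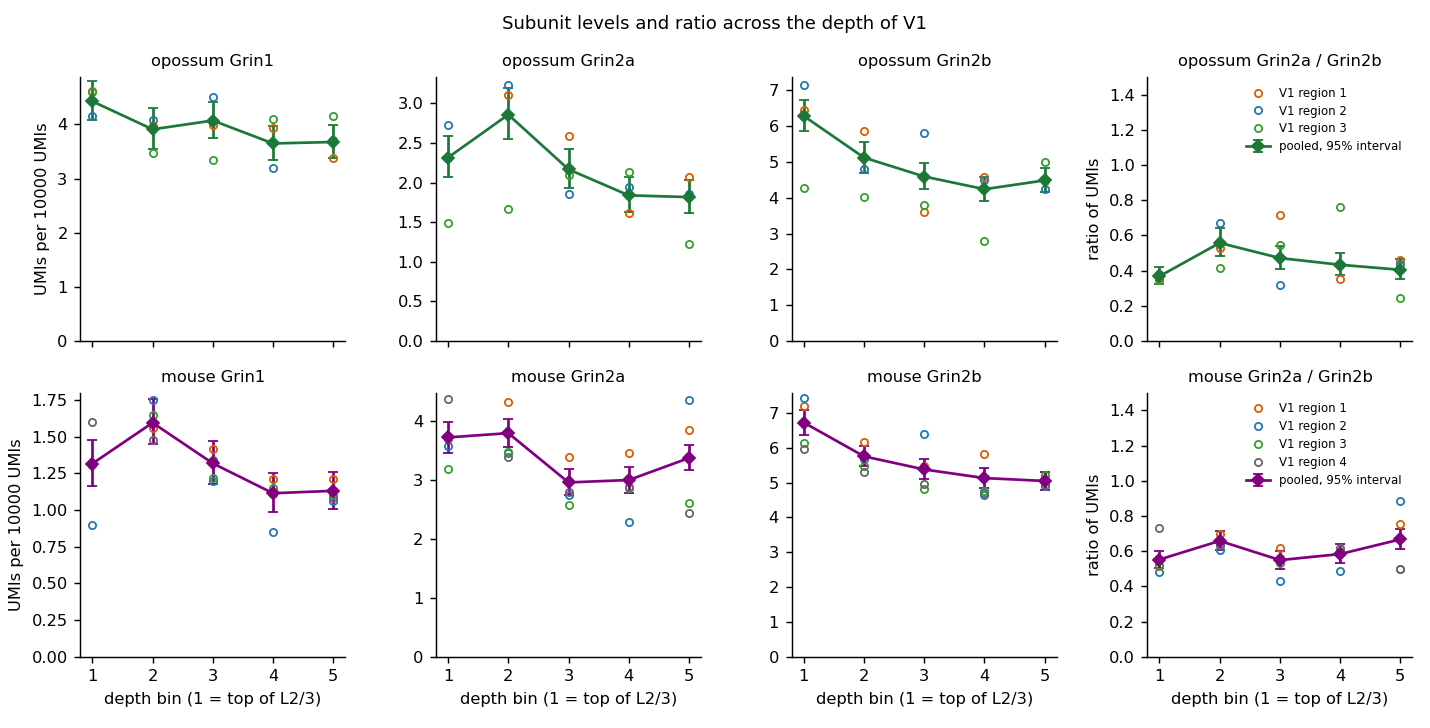
Levels of Grin1, Grin2a and Grin2b (UMIs per 10000 UMIs) and the Grin2a to Grin2b ratio in 5 depth bins of V1, bin 1 at the upper edge of layer 2/3. Diamonds are pooled values with 95% intervals and circles are V1 regions. Pooled Grin2b is highest in bin 1 in both species (6.28 and 6.73), and the opossum ratio is 0.369 in bin 1 and 0.558 in bin 2.

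The genes most like each member across subclasses were found by Pearson's r of log2 levels, as a description over 14 opossum subclasses (3342 genes) and 17 mouse subclasses (5497 genes) that share a library. For opossum Grin2b they were BSN (0.91), which organizes presynaptic release sites, NFAT5 (0.90) and CACNA2D3 (0.88), a calcium channel subunit, and for Grin2a PGBD5 (0.84), APBA2 (0.84) and NFATC3 (0.81). In each of these 2 lists 1 gene without a symbol also ranked among the first 3. For opossum Grin1 they were ENOX1 (0.81), ZFYVE1 (0.79) and MAN1A2 (0.79). Mouse Grin2b was most like Plcb1 (0.82), a phospholipase of receptor signalling, Tnrc6c (0.81) and A230006K03Rik (0.80). Mouse Grin2a was most like Fgf14 (0.81), A230006K03Rik (0.81) and Gabrb2 (0.81), a GABA receptor subunit, and mouse Grin1 most like Tiam2, Tecpr1 and Polr2e (0.84 each). Among the members, Grin2a and Grin2b had an r of 0.63 over opossum and 0.75 over mouse subclasses. Grin1 had 0.50 (opossum) and 0.27 (mouse) with Grin2a, and 0.41 and 0.54 with Grin2b.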

How the data were processed

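Stereo-seq was run on 1 block of coronal slices from 1 animal per species. Per the study's methods, the authors processed reads with the Stereo-seq Analysis Workflow (SAW 7.1.2), aligned opossum reads to a genome with extended 3′ gene ends and mouse reads to GRCm39, and assigned UMIs to segmented cells. The submitters' processing notes list GRCm39 and Cell Ranger. The deposited values are UMI counts per gene and cell, not normalized. V1 regions, the filter (at least 50 genes and 100 UMIs per cell) and labels are the authors'. Labels came from nearest neighbors among single-nucleus profiles of the species, in 3 rounds.

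From these counts, levels were computed as summed UMIs per 10000 with pandas 2.3.3, pyarrow 21.0.0 and numpy 2.4.6 under Python 3.11.15, with intervals from scipy 1.17.1 and plots from matplotlib 3.10.9. Subclasses with fewer than 25 V1 cells were left out (4 in each species), as were cells without a subclass (46 opossum, 512 mouse), from values by subclass only. Depth ran along the side of each region's smallest enclosing rectangle on which IT_A (opossum) or L2/3 (mouse) and L6CT lay farthest apart, with IT_A or L2/3 at the upper end, and was scaled within each region and cut into 5 bins. With 1 animal per species no p-value was computed. Calls need a level at least 25% above the other and 1 direction in every region, over genes with at least 200 V1 UMIs. That minimum was taken over all V1 cells, also where a region was left out or cells were thinned. The calling was tried on simulated Poisson counts, for the depth comparison only and with folds larger than the rule requires. The members' counts were more spread than Poisson counts, so the simulation does not cover them. Thinning drew 300 UMIs per cell and left out 156 opossum and 130 mouse cells. Named genes are the 6 members, partners that were called, and the 3 genes most like each member with at least 500 UMIs (log2 of the level plus 0.05). Coordinates, exons and sequences come from the GRCm39 genome with GENCODE vM39. The members, lists and tests were chosen with earlier results of these data known. The values of 1 listed partner gene are not reported here.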

Additional observations from a re-analysis of the deposited data

Results flagged for a closer look

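The comparisons use cells of the V1 regions alone, and UMIs of the members were also counted in cells outside these regions, with no control sample to set them against. Cells outside can include V1 tissue that was not placed in a region, among it layer 1, and no filter was applied to them here. In the opossum the levels outside the regions were 2.50 UMIs per 10000 for Grin1, 1.36 for Grin2a, 4.06 for Grin2b and 0.0930 for Grin2c. In the mouse they were at 1.08 for Grin1, 3.51 for Grin2a, 5.64 for Grin2b, 0.247 for Grin2c, 0.0932 for Grin2d and 0.286 for Grin3a. The levels in V1 were 3.93, 2.15, 4.91 and 0.104 for the opossum genes and 1.30, 3.36, 5.57, 0.237, 0.0775 and 0.180 for the mouse genes, in the same order. The cells outside the regions were given no further labels here.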

How the results depend on the processing

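No paired analysis was possible because the labels give 1 sample per species and the regions of the species share no origin. Counting only genes with a symbol in both species as the total raised every level. Opossum Grin1, Grin2a, Grin2b and Grin2c rose to 5.58, 3.05, 6.96 and 0.147. Mouse Grin1, Grin2a, Grin2b, Grin2c, Grin2d and Grin3a rose to 2.15, 5.58, 9.23, 0.393, 0.128 and 0.299. Those genes held 70.5% of opossum and 60.3% of mouse V1 UMIs, so this total also changes the folds between species. Thinning to 300 UMIs gave levels of 1.93 for Grin2a and 4.43 for Grin2b in the opossum and of 3.25 for Grin2a, 5.08 for Grin2b and 0.119 for Grin2d in the mouse, and the mean over cells gave 1.89 for Grin2a and 4.24 for Grin2b in the opossum. Ratios of Grin2a to Grin2b after thinning were 0.640 in mouse V1, 0.681 in mouse and 0.387 in opossum glutamatergic subclasses, 0.674 in superficial mouse V1, and 0.391 and 0.485 in superficial and deep opossum V1. With first-round labels the ratio was 0.262 in opossum GABAergic and 0.717 in mouse glutamatergic subclasses, and in cells whose class label fits it was 0.315 in opossum GABAergic and 0.691 in opossum non-neuronal ones. Glutamatergic cells alone gave 0.642 in deep mouse V1, and non-neuronal cells alone 0.654 and 0.524 in superficial and deep opossum and 0.419 in superficial mouse V1. 

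Between the classes, layers and depths compared, folds that no longer passed the rule after thinning were those of glutamatergic against non-neuronal subclasses for opossum Grin1 (1.09) and Grin2a (1.33), of GABAergic against glutamatergic subclasses for opossum Grin2a (0.924), of L6CT against upper-layer neurons for opossum Grin2a (0.917) and mouse Grin1 (0.802), of L4 against L2/3 for Grin2b (0.745) and Grin3a (2.38), and of deep against superficial mouse V1 for Grin1 (0.778) and Grin2c (0.783). First-round labels did the same for opossum Grin2a in L6CT (0.915) and IT_B (1.69), mouse Grin1 in L6CT (0.855) and Grin3a in L4 (7.31), and depth calls were lost in non-neuronal cells for Grin1 (0.864) and Grin2c (0.816) and in glutamatergic cells for Grin2c (0.780). A threshold of 1.5-fold removed by its construction the calls at 1.32, 0.759, 0.790, 0.794, 0.748, 1.37, 0.752, 0.737 and 0.788. In the rest the cause was not tested. Against the other subclasses, mouse Grin3a in L5PT turned from 0.427 to 1.46 after thinning, which also ended the calls of opossum Grin2b in OPC (0.830) and L5NP (0.578), mouse Grin3a in OPC (1.02) and L6CT (0.268) and mouse Grin1 in L6b (0.987). Without 1 region, levels ranged from 4.66 to 5.12 for opossum Grin2b, from 3.11 to 3.48, 5.33 to 5.69 and 0.0709 to 0.0945 for mouse Grin2a, Grin2b and Grin2d, and the opossum non-neuronal ratio from 0.456 to 0.679. Folds ranged from 1.23 to 1.40 (opossum Grin1, glutamatergic against non-neuronal), 0.721 to 0.815 (opossum Grin2a, GABAergic), 0.687 to 0.892 (opossum Grin2a, L6CT), 0.765 to 0.815 (mouse Grin1, depth), 1.23 to 1.43 (mouse Grin2b, glutamatergic against non-neuronal) and 0.752 to 0.829 (mouse Grin2b, L4). Under the other settings, 52 of 77 values of the called folds between classes, layers and depths kept their side of the rule, as did 162 of 183 values of the remaining member folds.

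Counts of genes called moved by over 1.5 times in 38 of 40 cases under a 1.5-fold threshold or a minimum of 1000 UMIs. Opossum genes higher in glutamatergic than in non-neuronal subclasses numbered 1227 (18.7% of those tested), and 762 (11.6%) and 321 (20.7% of 1548) under these settings. Mouse genes numbered 644 (7.08%), and 268 (2.95%) and 245 (8.33% of 2940). With 1 region left out, 22 of 70 counts moved by as much, such as mouse genes in GABAergic against glutamatergic subclasses, up to 15.0% lower and 8.45% higher. Subclasses against all others, the cell with most UMIs left out, and depth in non-neuronal cells alone were added after the data had been seen. A single animal per species leaves out the spread between animals, thinning leaves few UMIs of the rare members, and Grin2d and opossum Grin2c are limited by their counts.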
